A study of Mus musculus with 36 samples.

Results

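The Notch pathway members described here are 9 genes: the receptors Notch1, Notch2 and Notch3, the ligands Jag1 and Dll1, and the target genes Hes1, Hes5, Hey1 and Heyl. They were found by gene symbol, and 11 of the 45281 probes on the arrays, or 9 of 30833 symbols, carried 1 of these names. Notch2 and Hes5 had 2 probes each and the other members 1.

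RNA was measured on 36 Illumina bead arrays of primary mouse astrocyte cultures, described as cortical in the sample labels, while the growth protocol names cortex or hippocampus. The cultures came from C57B/6 pups aged P0-P2 and were grown in medium with serum until about confluent. The treated groups received about 100 nM dexamethasone, a synthetic glucocorticoid, in the medium, and the control groups received vehicle, and each was collected at 8 times, from 0.25 and 1 h through 2, 4 and 6 h to 12, 18 and 24 h. No genotype or other agent distinguished the groups, and all groups shared the strain, the pup age and the culture conditions. The titles of all vehicle arrays at 2, 4 and 6 h end in _2, and no other title does. The labels do not say what this suffix marks. At these times it cannot be told apart from treatment, and in the comparisons among vehicle groups it cannot be told apart from time. At 2 and 4 h there were 3 arrays per treatment and at the other times 2, which gives 18 dexamethasone and 18 vehicle arrays. The labels do not say whether replicates were separate cultures, so each p-value reflects no more than how far these arrays scatter, and that scatter may be technical.

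Notch signalling passes between touching cells. A Jagged or Delta-like ligand on one cell binds a Notch receptor on its neighbour, an ADAM protease and then gamma-secretase cut the receptor, and the freed intracellular domain joins RBPJ and Mastermind on DNA and turns on Hes and Hey genes, which encode transcriptional repressors. In the developing cortex the pathway keeps radial glia in a progenitor state and favours the astrocyte lineage over the neuronal one, and Hes1 is known from mouse neural progenitors to repress its own promoter.

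Of the 10 astrocyte markers listed, which include Gfap, Aqp4, Slc1a3 and Aldh1l1, all 10 were tested and 8 lay above background on all 36 arrays, with an average log2 level between 11.65 and 12.59. Markers of other cells were present as well. The average log2 level of microglial genes was 10.04 to 10.59 on the arrays of 0.25 and 1 h and 7.14 to 8.64 on all later arrays but 1. That array, vehicle replicate 1 at 12 h, stood at 9.96, against 7.35 in its replicate, and this pair differed more than any other pair of replicates (SD of the log2 difference 0.63). The Notch3 call and the Hey1 and Hes1 values at 12 h are therefore also given without single arrays. Jag1 and Hes5, which were not called at 12 h, moved as well without vehicle replicate 1. Their log2 differences there went from 0.02 to -0.27 for Jag1 and from -0.20 to 0.50 for Hes5, which was near background. These are bulk samples, in which fewer cells of a type and less RNA per cell cannot be told apart. The steroid response itself was present: 8 of 8 known glucocorticoid-receptor targets, such as Fkbp5 and Tsc22d3, were higher on average over the 8 times. Their median log2 difference was 2.14, and 5.19% of all genes were called higher. Like the other lists, this one was chosen with earlier results of these data known, so it is not an independent control.

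Promoter sequences are shown for 3 members. Notch3 was called at 3 single times, and Jag1 is the ligand that changed. Hes5 is shown as a target gene that carries the recognition letters of RBPJ, but it was near background and not called with all arrays. Hes1, Hey1 and Heyl had no entry in the promoter table, which matched 6 of the 9 members. The sequences shown are from RefSeq, build GRCm38.p6. Each is the 250 bases upstream of the annotated start, read 5′ to 3′ on the gene's strand, at chr17:32166891-32167140 (minus strand) for Notch3, chr2:137116521-137116770 (minus strand) for Jag1 and chr4:154960673-154960922 (plus strand) for Hes5. Capitals mark motif letters on either strand.
Notch3: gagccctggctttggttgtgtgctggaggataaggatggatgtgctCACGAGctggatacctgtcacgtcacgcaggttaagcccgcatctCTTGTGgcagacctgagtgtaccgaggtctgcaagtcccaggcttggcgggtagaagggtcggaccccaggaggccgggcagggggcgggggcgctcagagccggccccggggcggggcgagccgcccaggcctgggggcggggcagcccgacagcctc
Jag1: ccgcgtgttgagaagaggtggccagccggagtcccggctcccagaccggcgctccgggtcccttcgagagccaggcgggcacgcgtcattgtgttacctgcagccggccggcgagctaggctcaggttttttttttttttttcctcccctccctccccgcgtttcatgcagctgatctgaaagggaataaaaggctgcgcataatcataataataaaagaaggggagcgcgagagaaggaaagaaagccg
Hes5: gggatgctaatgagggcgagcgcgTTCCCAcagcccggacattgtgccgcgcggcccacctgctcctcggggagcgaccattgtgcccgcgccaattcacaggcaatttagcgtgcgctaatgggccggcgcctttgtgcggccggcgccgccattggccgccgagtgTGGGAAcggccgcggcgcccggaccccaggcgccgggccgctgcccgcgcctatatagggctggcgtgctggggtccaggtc
The capitals in Notch3 are 2 matches to the N-box CACNAG, a sequence that Hes repressors bind, beginning 204 and 159 bases upstream of the start. Those in Hes5 are 2 matches to TGGGAA, the core bound by RBPJ, beginning 226 and 82 bases upstream. Jag1 held neither. The 3 windows held no AGAACA, the core hexamer of glucocorticoid-receptor sites, and no palindromic glucocorticoid response element, within which that hexamer can lie. Over 32851 promoter windows of the same length, searched on both strands, 36.7% held CACNAG, 21.6% TGGGAA, 16.1% AGAACA and 0.387% the palindromic element. Among the other members in the table, Notch1 and Notch2 each held 1 N-box and 1 of the 2 Dll1 windows held 1 AGAACA, which begins 44 bases upstream. A match is a description of letters and not evidence of binding.

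Of the 9 members, 5 were above background on every array, namely Notch1, Notch3, Jag1, Hes1 and Hey1. Background was set at an intensity of 92.05. Intensities below are the deposited, normalised linear values. Log2 differences are dexamethasone minus vehicle after background correction with an added offset of 16, which understates changes of dim probes, and are given with their standard error and the adjusted p of limma's moderated test over 20523 genes. A gene is called where that p is below 0.05. Whether the arrays of the groups overlapped is a description, and its share over all genes was not computed. With so few arrays per group, groups also lay apart where nothing was called. Examples are Notch1 at 6 h, Jag1 at 0.25 h and the Notch2 probe near background at 2 h.

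Averaged over the 8 times, dexamethasone cultures had less RNA of 1 receptor and 2 target genes. Notch3 fell by 0.58 on the log2 scale (SE 0.0993, adjusted p = 0.00013), Hes1 fell by 0.44 (SE 0.0897, adjusted p = 0.000883) and Hey1 fell by 0.40 (SE 0.0655, adjusted p = 8.15e-05). No member rose. These 3 calls among 8 members tested stand beside 11.9% of all genes called, with 6.7% lower and 5.19% higher. The median over the 8 members was -0.19, against -0.009 over all genes. The 3 calls held in each of the 44 alternatives tried, including the omission of each array in turn. Hey1 was lower at 8 of 8 times, Hes1 at 7 and Notch3 at 6. Such counts are a description, since Notch1 and the Notch2 probe near background were higher at 6 of 8 times without being called. The times at which the 3 called members differed were not the same, as the member-by-member account shows.

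**Figure D1:**
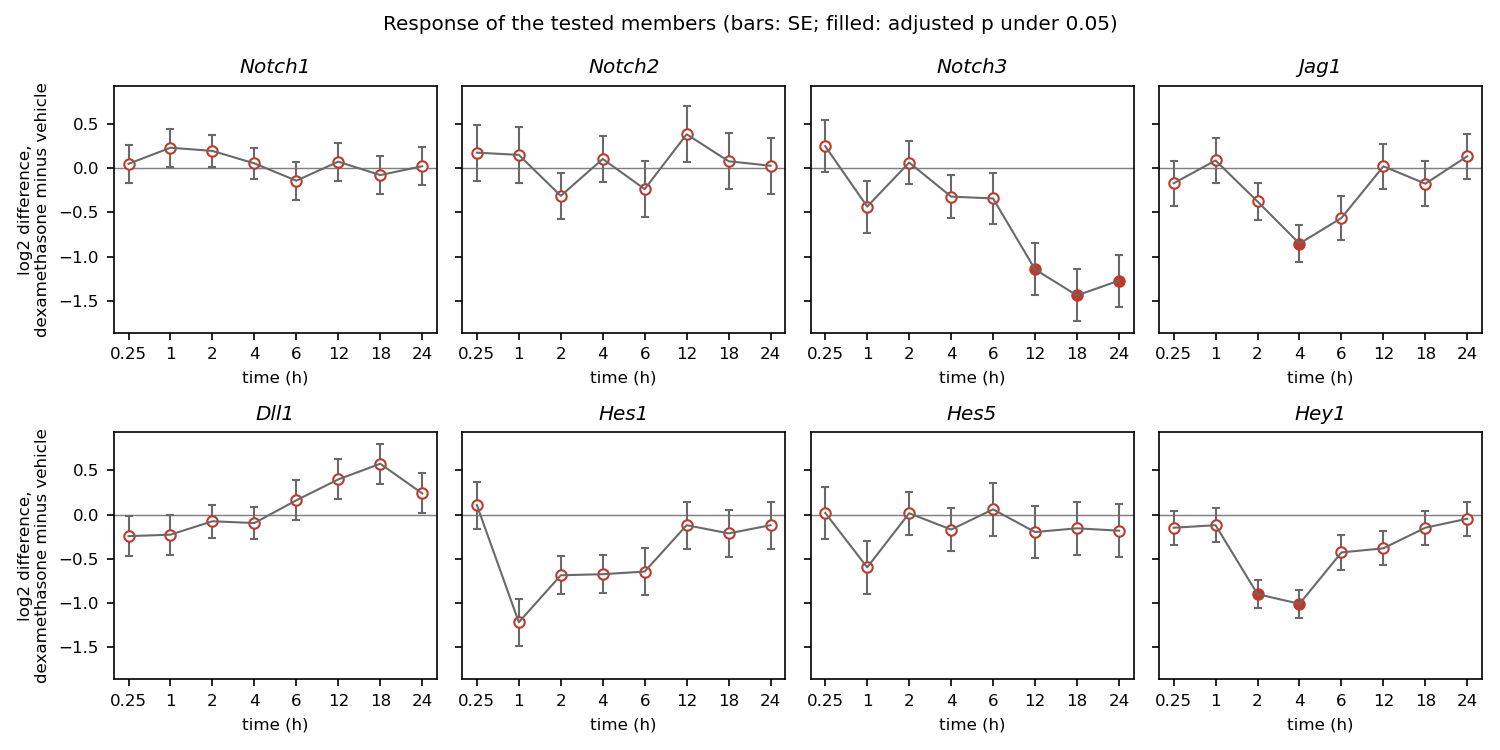
Log2 difference between dexamethasone and vehicle (vertical axis) at each time in hours (horizontal axis, evenly spaced) for the 8 tested members. Bars are standard errors, and filled points passed an adjusted p of 0.05. Hey1 and Jag1 are lowest at 4 h (-1.01 and -0.85), Hes1 at 1 h (-1.22, open point) and Notch3 at 18 h (-1.44). The Notch2 probe was above background on 2 arrays only, and no difference is read from its panel.

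Among the receptors, Notch3 changed late. Notch3 is known best from vascular smooth muscle and pericytes and is also made by neural progenitors. At 0.25 h its arrays read 849 and 725 with dexamethasone and 772 and 576 with vehicle, and at 1 h 451 and 784 against 792 and 787. At 2 h the dexamethasone arrays read 747, 507 and 646 and the vehicle arrays 697, 535 and 580. At 4 h they read 566, 562 and 370 against 656, 683 and 490, and at 6 h 547 and 534 against 699 and 653. The groups overlapped at 0.25, 2 and 4 h. They were apart at 1 h, by little for 1 of the dexamethasone arrays, and at 6 h, where the log2 difference was -0.34 (SE 0.293, adjusted p = 1).

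At 12 h the Notch3 arrays read 418 and 230 with dexamethasone and 779 and 524 with vehicle. At 18 h they read 203 and 205 against 480 and 504, and at 24 h 234 and 238 against 522 and 518. Every dexamethasone array lay below every vehicle array at these times, and the replicates at 18 and 24 h were close to each other. Notch3 fell by 1.14 on the log2 scale at 12 h (SE 0.293, adjusted p = 0.0173), by 1.44 at 18 h (SE 0.293, adjusted p = 0.00297) and by 1.27 at 24 h (SE 0.293, adjusted p = 0.00871), or 2.21-fold, 2.71-fold and 2.41-fold lower. It was the 1 member called at each of these times, beside 5.71% of all genes called at 12 h, 3.64% at 18 h and 3.9% at 24 h, where 2.04% were lower. The call at 12 h was lost without dexamethasone replicate 2 (-0.65, adjusted p = 0.4) and without vehicle replicate 1 (-0.84, adjusted p = 0.19). At 24 h it was lost without any 1 of the 4 arrays, although the values stayed at -1.26 to -1.28 (adjusted p 0.06 to 0.078), and at 18 h it held without each.

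The response of Notch3 at 12, 18 and 24 h was lower than that at 1, 2 and 4 h by 1.05 on the log2 scale (SE 0.226, adjusted p = 0.00401), and this held in all 37 alternatives. Notch3 was also the 1 member with an F-test of the response across the 8 times past the threshold (F = 4.96, adjusted p = 0.0463). The F-test call held in 13 of 44 alternatives and in 9 of the 36 that left out 1 array, and was lost, for example, without vehicle replicate 1 at 12 h. All genes called made up 4.93% for late minus early and 2.76% for the F-test.

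Marker lists were read at the same times. Their counts stand beside 2.39% of all genes called at 4 h, 2.09% at 6 h, 5.71% at 12 h and 3.64% at 18 h. At 24 h the share was 3.9%, with 2.04% lower, and for late minus early it was 4.93%. Shares by direction at 12 and 18 h were not computed. Cell division genes such as Mki67 and Top2a were lower for 9 of 10 at 24 h (median log2 difference -1.98) and for 8 of 10 at 18 h (median -1.42). At 12 h 3 of 10 were lower (median -0.58), and at 4 and 6 h 0 of 10 changed (medians -0.08 and -0.05). Their part in the Notch3 result was not tested. Of 10 pericyte, smooth muscle and fibroblast genes tested, where Notch3 is also known, 0 were called at 12, 18 or 24 h, with medians of 0.28, 0.08 and 0.12. The pericyte markers Rgs5, Anpep and Vtn were not tested because they were not above background on 2 arrays. Microglial genes had a median of -1.03 at 12 h, where 3 of 11 were lower, and of -0.01 and -0.11 at 18 and 24 h, where 0 of 11 changed. Ependymal and choroid plexus genes were lower for 4 of 6 at 12 h (median -0.9), for 1 of 6 at 18 and at 24 h (median -0.28 at both) and for 2 of 6 in late against early responses (median -0.55). Astrocyte genes were higher for 3 of 10 at 18 h (median 0.08), and at 24 h 3 were higher and 1 lower (median -0.16). For 6 oligodendrocyte lineage genes above background on all arrays, average log2 levels were read. At 18 h they were 10.53 and 10.44 with dexamethasone against 9.79 and 9.49 with vehicle. At 24 h they were 10.61 and 10.62 against 9.6 and 9.82, and at 12 h 10.17 and 9.6 against 11.22 and 9.14. Levels at 24 h were 6.96 and 7.06 against 6.51 and 6.68 for 2 such endothelial genes. For 6 such neuron and neuroblast genes they were 8.67 and 9.08 against 8.78 and 8.77. The part of these lists in the Notch3 result was not tested either.

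**Figure D2:**
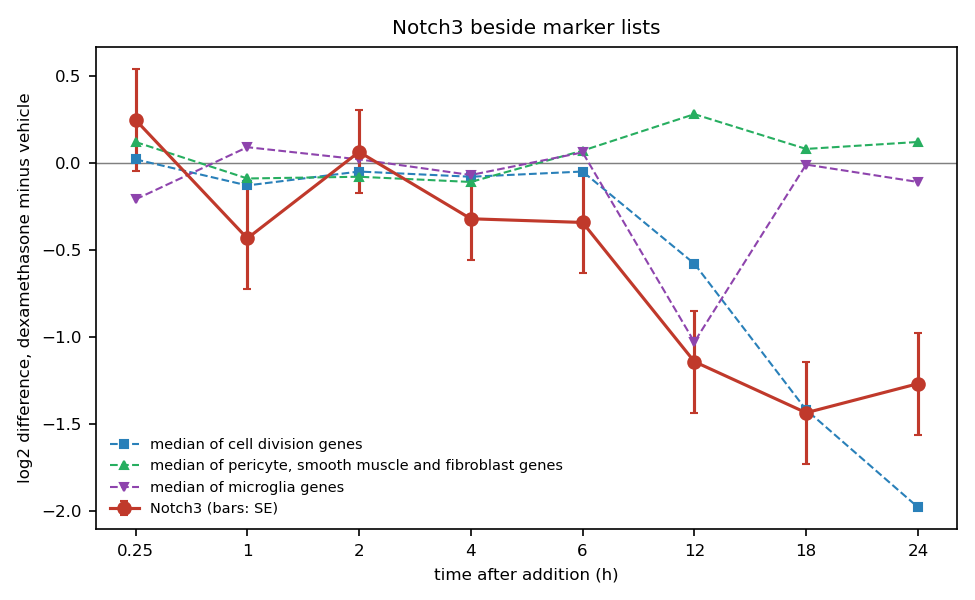
Log2 difference between dexamethasone and vehicle for Notch3 (red, bars are SE) and the medians of 3 marker lists (dashed) at each time in hours. Notch3 and the cell division genes are both low from 12 h (at 18 h -1.44 and -1.42), the pericyte, smooth muscle and fibroblast genes lie between -0.11 and 0.28, and the microglial genes dip at 12 h only (-1.03).

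Notch1, the receptor with roles in radial glia and in early astrocyte formation, was measured on all 36 arrays and did not pass the test in any comparison. Its intensity ran from 2737 to 4890 with vehicle (median 3874) and from 2813 to 5062 with dexamethasone (median 3892), and the groups covered nearly the same range. The averaged log2 difference was 0.05 (95% interval -0.1 to 0.2, adjusted p = 0.801). The estimates at the single times lay between -0.14 at 6 h and 0.23 at 1 h.

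Notch2, also made by glial progenitors, was not well above background. Its 2 probes exceeded the background level on 1 and 2 of 36 arrays, with highest intensities of 96.5 and 95, so that no difference between the treatments is read from it. The probe with 2 such arrays passed the filter and stands in the fit and in the median over the 8 members.

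Of the ligands, Jag1 changed, at 4 h. Jag1 encodes Jagged1, a ligand that astrocytes are known to display. At 2 h its intensities were 165, 204 and 159 with dexamethasone and 215, 211 and 224 with vehicle. At 4 h they were 154, 108 and 104 against 242, 157 and 175, and at 6 h 163 and 196 against 252 and 243. The dexamethasone arrays lay below all vehicle arrays at these 3 times. Jag1 fell by 0.85 on the log2 scale at 4 h (SE 0.206, adjusted p = 0.0183), which is 1.81-fold lower. The values at 2 and 6 h, -0.38 and -0.56, did not pass the test (adjusted p = 1 and 0.553).

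Jag1 at 4 h rested on few arrays. The call was lost without dexamethasone replicate 2 (-0.75, adjusted p = 0.12), without dexamethasone replicate 3 (-0.70, adjusted p = 0.15) and without vehicle replicate 1 (-0.63, adjusted p = 0.19). By 12 h the arrays read 261 and 244 against 210 and 297, at 18 h 166 and 136 against 150 and 181, and at 24 h 214 and 219 against 179 and 225. The groups overlapped at all 3 late times. Averaged over the 8 times the difference was -0.24 (SE 0.0852, adjusted p = 0.0747). It passed without vehicle replicate 1 at 12 h (-0.27, adjusted p = 0.032), without dexamethasone replicate 1 at 4 h (-0.27, adjusted p = 0.022) and without vehicle replicate 2 at 4 h (-0.26, adjusted p = 0.048). Without the 12 h arrays, a choice made after seeing the data, the average was -0.27 and passed narrowly (adjusted p 0.05 after rounding). In the comparison of late with early responses the Jag1 difference was 0.37 (SE 0.194, adjusted p = 0.412).

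Dll1, a Delta-like ligand typical of neurogenic cells, was dim, with intensities of 86.4 to 146.6, and lay above background on 32 of 36 arrays. Its averaged difference was 0.09 (SE 0.0763, adjusted p = 0.587). At 18 h the dexamethasone arrays read 118 and 120 and the vehicle arrays 86 and 97, and at 24 h 128 and 142 against 113 and 126. Dexamethasone arrays were above all vehicle arrays at both times, but the log2 differences of 0.57 (SE 0.226, adjusted p = 0.25) and 0.24 (SE 0.226, adjusted p = 0.81) did not pass the test, nor did late minus early (0.54, SE 0.174, adjusted p = 0.0806). The latter passed without vehicle replicate 1 at 12 h (0.61, adjusted p = 0.04) and without dexamethasone replicate 2 at 12 h (0.64, adjusted p = 0.025).

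Among the target genes, Hey1 had the smallest adjusted p of the members on average and at 2 and 4 h. Hey1 encodes a repressor with a basic helix-loop-helix domain. At 0.25 h its arrays read 7982 and 7972 with dexamethasone and 9050 and 8630 with vehicle, and at 1 h 9114 and 8457 against 9369 and 9705. At 2 h they read 4312, 3812 and 4375 against 7316, 7647 and 8224. The groups were apart at all 3 times, narrowly at 0.25 and 1 h and by a wide margin at 2 h.

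At 4 h the Hey1 arrays read 3883, 3770 and 2852 with dexamethasone and 6861, 7381 and 6590 with vehicle, and at 6 h 4747 and 5038 against 6355 and 6780. The groups were again apart, and the dexamethasone arrays at 4 h were the lowest of the whole series for this gene but for 1 array at 2 h that lay between them. Hey1 fell by 0.90 on the log2 scale at 2 h (SE 0.158, adjusted p = 0.00177) and by 1.01 at 4 h (SE 0.158, adjusted p = 0.000155), or 1.86-fold and 2.01-fold lower. At 6 h the value was -0.43 (SE 0.194, adjusted p = 0.568).

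The later Hey1 arrays came together. At 18 h they read 5402 and 5520 with dexamethasone and 5719 and 6394 with vehicle, and at 24 h 4934 and 6287 against 5670 and 5834. The groups were narrowly apart at 18 h and overlapped at 24 h, with log2 differences of -0.15 and -0.05 (adjusted p = 1 and 0.967). At 12 h they read 5555 and 5243 against 9425 and 5224, where the vehicle pair disagreed. The value there was -0.38 (SE 0.194, adjusted p = 0.336), and it was -0.81 (adjusted p = 0.0071) without vehicle replicate 2 and 0.05 (adjusted p = 0.95) without vehicle replicate 1. The late minus early difference of 0.48 (SE 0.149) did not pass the test (adjusted p = 0.0619). With the same value it passed under 3 other ways of processing. These were no background correction and an offset of 50 (adjusted p = 0.04 for each) and trended and robust variances (adjusted p = 0.043). It was 0.63 (adjusted p = 0.0018) without vehicle replicate 1 at 12 h and 0.58 (adjusted p = 0.0091) without the 12 h arrays, a choice made after seeing the data.

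Hey1 was the 1 member called at 2 h, beside 0.711% of all genes, and Hey1 and Jag1 were the 2 called at 4 h, beside 2.39%. At 0.25 h limma called 0 members and 0% of all genes, while 202 genes and 0 of 8 members had an unadjusted p below 0.05. At 1 h it called 0 members beside 0.0682% of genes, and at 6 h 0 members beside 2.09%. Unadjusted p-values were below 0.05 for 1 of 8 members and 302 genes at 1 h, and for 3 of 8 members, which were Jag1, Hes1 and Hey1, and 1540 genes at 6 h.

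**Figure D3:**
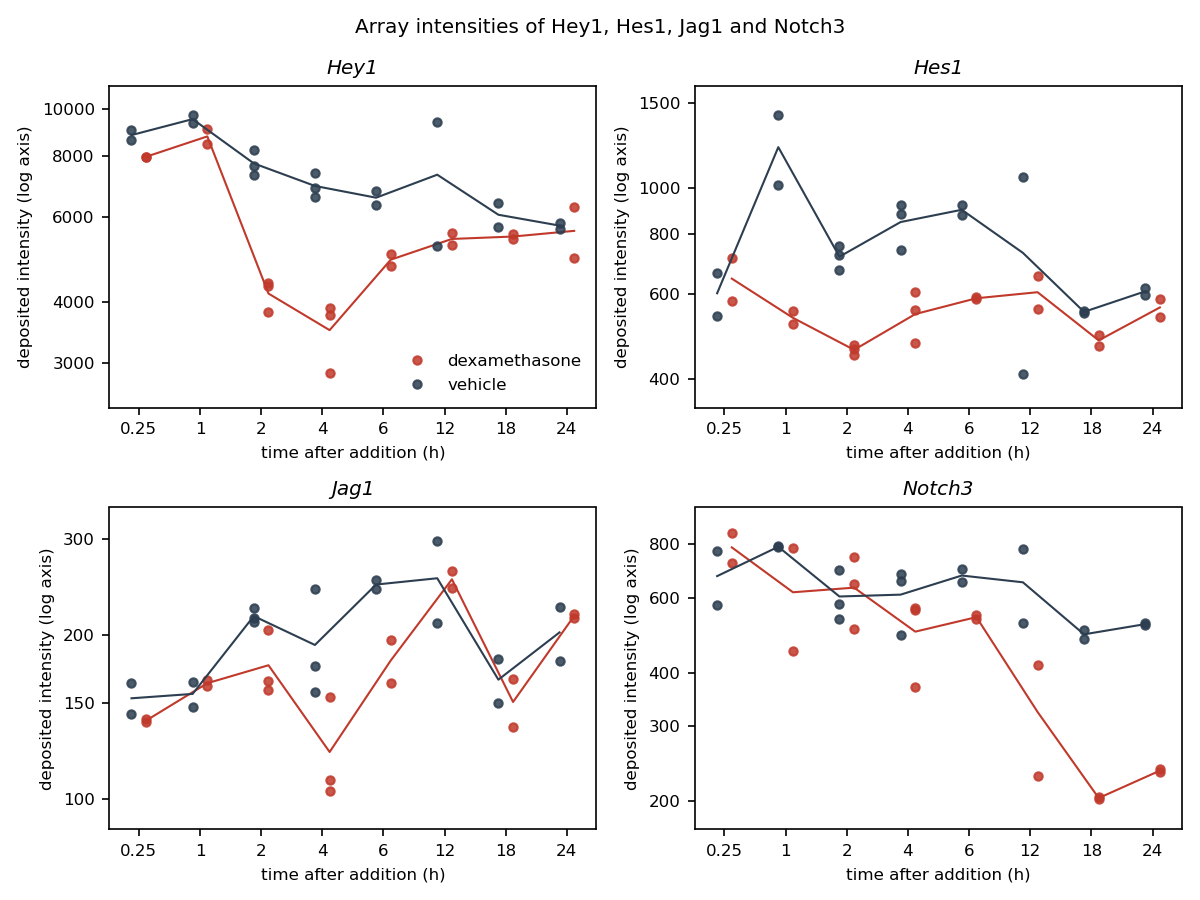
Deposited intensity (vertical log axis, a separate range for each gene) against time in hours (evenly spaced) for Hey1, Hes1, Jag1 and Notch3. Each point is 1 array, red for dexamethasone and dark blue for vehicle, and lines join the group means. At 4 h the Hey1 arrays read 2852 to 3883 with dexamethasone and 6590 to 7381 with vehicle, at 18 h the Notch3 arrays read 203 and 205 against 480 and 504, and the vehicle pair at 12 h is far apart for Hey1 and Hes1 (9425 and 5224, 1054 and 410).

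Hes1, the repressor that holds neural progenitors and glia in an undifferentiated state, had its widest gap at 1 h. At 0.25 h its arrays read 580 and 713 with dexamethasone and 540 and 666 with vehicle. At 1 h they read 519 and 552 against 1416 and 1013. The groups overlapped at 0.25 h and were far apart at 1 h, where 1416 was the highest Hes1 intensity of the series. The log2 difference at 1 h was -1.22 (SE 0.265), or 2.32-fold lower, and did not pass the test (adjusted p = 0.122), which 14 genes passed at that time.

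At 2 h the Hes1 arrays read 470, 448 and 461 with dexamethasone and 758, 724 and 673 with vehicle. At 4 h they read 475, 555 and 606 against 742, 881 and 922, and at 6 h 586 and 591 against 920 and 879. All dexamethasone arrays lay below all vehicle arrays at these times. The log2 differences were -0.68 at 2 h (SE 0.216, adjusted p = 0.279), -0.67 at 4 h (SE 0.216, adjusted p = 0.133) and -0.64 at 6 h (SE 0.265, adjusted p = 0.43). With the replicate number as a block, which at 2 and 4 h tracked shared deviations between the treatments, Hes1 passed at 2 h (-0.68, adjusted p = 0.03) and at 4 h (-0.67, adjusted p = 0.014).

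At 12 h Hes1 read 654 and 558 with dexamethasone and 1054 and 410 with vehicle, at 18 h 469 and 493 against 554 and 549, and at 24 h 588 and 539 against 618 and 598. The vehicle arrays at 12 h lay on both sides of the dexamethasone arrays, and the gaps at 18 and 24 h were small. The value at 12 h was -0.12 (SE 0.265, adjusted p = 0.897), and it was -0.84 (adjusted p = 0.014) without vehicle replicate 2 and 0.60 (adjusted p = 0.1) without vehicle replicate 1. The late minus early difference was 0.71 (SE 0.204, adjusted p = 0.0414), a smaller deficit at the late times. That call held in 14 of 37 alternatives, in which the value ran from 0.47 to 0.95 and the adjusted p reached 0.11. Late minus early thus called 2 members, Notch3 and Hes1, in opposite directions.

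Hes5, the other main Notch target in the nervous system, was near background. Its brighter probe exceeded the background level on 18 of 36 arrays (intensity 69.5 to 132.7) and the other on 7. The averaged difference of the brighter probe was -0.15 (SE 0.101, adjusted p = 0.453), or -0.24 (adjusted p = 0.049) without vehicle replicate 2 at 12 h, and that of the other, in a fit of every probe, 0.01 (SE 0.0921, adjusted p = 0.969). The widest gap was at 1 h, where the brighter probe read 82 and 101 with dexamethasone and 108 and 133 with vehicle (-0.60, SE 0.298, adjusted p = 1). Heyl, a Hey relative found with Notch3 in vascular smooth muscle, was above background on 0 of 36 arrays, with intensities of 59.6 to 79.4, and was not tested.

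**Figure D4:**
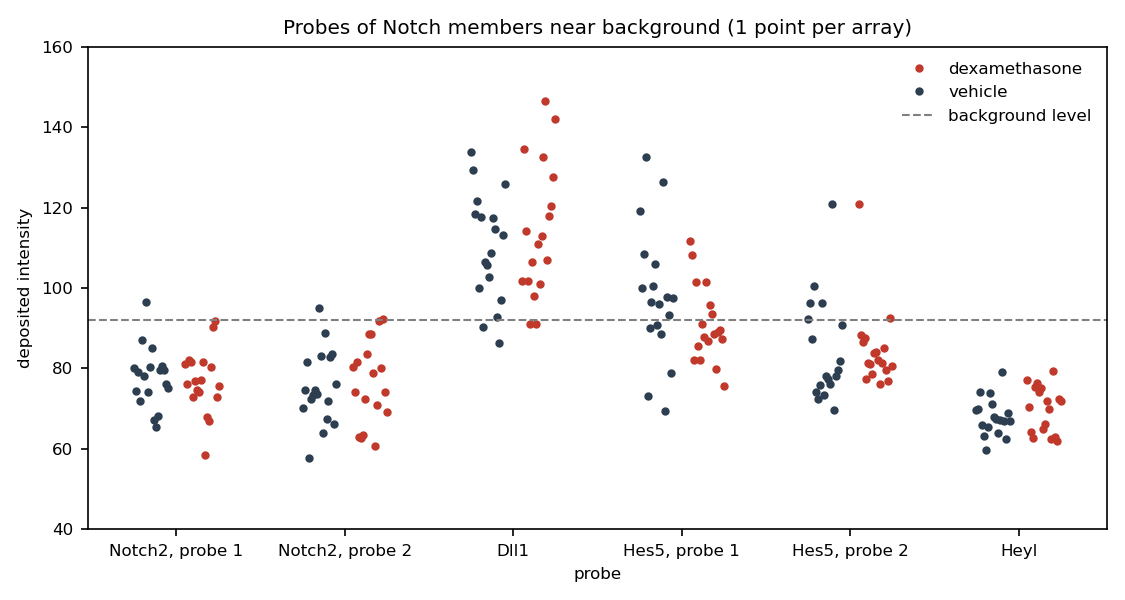
Deposited intensity (vertical axis) of the 6 probes that were not above background on all arrays, 1 point per array, red for dexamethasone and dark blue for vehicle. The dashed line is the background level of 92.05. The Heyl probe lies wholly below it and the Dll1 probe mostly above it.

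The vehicle arrays show how the members varied without steroid, although time in vehicle cannot be told apart from the culture or array set. In vehicle cultures at 0.25 and 1 h compared with those at 2, 4 and 6 h, Jag1 was lower by a log2 value of -0.60 (SE 0.155, adjusted p = 0.0101) and Hey1 higher by 0.38 (SE 0.119, adjusted p = 0.0341). These were the 2 members called, beside 12.7% of all genes. In the same comparison 10 of 11 microglial genes were higher (median 2.45), as were 8 of 12 oligodendrocyte lineage genes (median 1.52), 5 of 6 ependymal and choroid plexus genes (median 0.75) and 4 of 10 astrocyte genes (median 0.47). Cell division genes were lower for 4 of 10 (median -0.49). Their part in the Jag1 and Hey1 differences was not tested. The Jag1 call was lost without vehicle replicate 2 at 0.25 h (-0.54, adjusted p = 0.063) and without vehicle replicate 1 at 1 h (-0.55, adjusted p = 0.052). The Hey1 call held in 10 of 19 alternatives, with values of 0.36 to 0.40.

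In vehicle cultures at 18 and 24 h compared with those at 2, 4 and 6 h, Hes1 was lower by a log2 value of -0.52 (SE 0.163, adjusted p = 0.0253). It was the 1 member called, beside 20.3% of all genes, and the call held in 14 of 19 alternatives, with values of -0.50 to -0.56. In the same comparison 3 of 11 microglial genes were higher (median 0.44), as were 2 of 6 ependymal and choroid plexus genes (median 0.46), while of 10 astrocyte genes 4 were higher and 1 lower (median 0.35). Pericyte, smooth muscle and fibroblast genes were lower for 3 of 10 (median -0.16), as were cell division genes for 2 of 10 (median -0.16) and endothelial genes for 2 of 8 (median -0.26). Their part in the Hes1 difference was not tested. The dexamethasone arrays of Hes1 lay between 448 and 654 at every time from 1 h on.

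The wider pathway was read from lists of genes that act at each step. Of 5 further receptors and ligands tested, 1 rose on average over the 8 times. This was Dlk1, a Delta-like protein that lacks the domain by which canonical ligands bind Notch, and it rose by 0.74 on the log2 scale (SE 0.0931, adjusted p = 1.6e-06). Dlk1 rose at 12 h by 1.45, at 18 h by 1.55 and at 24 h by 1.29 (adjusted p = 0.00127, 0.000598 and 0.00404), the 3 single times at which Notch3 was called lower. Jag2 and Dll3 were not tested because their probes were at background.

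Of 10 genes for ligand activation and receptor maturation, 1 fell on average and 2 fell in late against early responses. Neurl1b, a ubiquitin ligase of the Neuralized family that primes ligands for uptake and is listed on the array as C230078M08Rik, fell by 0.51 (SE 0.114, adjusted p = 0.00272). It fell by 1.42 at 18 h (SE 0.338, adjusted p = 0.0119) and by 2.09 at 24 h (SE 0.338, adjusted p = 0.000175). Pofut1, the fucosyltransferase that modifies Notch repeats, fell by 0.62 in late against early responses (SE 0.163, adjusted p = 0.0214).

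Of 9 ADAM protease and gamma-secretase genes 1 fell, which was the protease Adam17 (-0.19, SE 0.0534, adjusted p = 0.0173), and the median was 0.04. Of 11 endocytosis and ubiquitin genes, the Deltex gene Dtx1 rose by 0.43 (SE 0.133, adjusted p = 0.0321), its relative Dtx4 fell by 0.31 (SE 0.0833, adjusted p = 0.0114), and Fbxw7, which targets the cleaved receptor for destruction, fell by 0.28 (SE 0.0887, adjusted p = 0.04). The median of that list was -0.03.

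Of 18 genes of the nuclear complex and its co-repressors, 2 rose and 1 fell, with a median of -0.01. Cir1, a co-repressor that binds RBPJ and is listed as 1700023B02Rik, rose by 0.38 (SE 0.0814, adjusted p = 0.00159), and the Groucho-type co-repressor Tle3 rose by 0.43 (SE 0.0943, adjusted p = 0.00193) while Tle4 fell by 0.23 (SE 0.0668, adjusted p = 0.0234). Of 5 further Hes and Hey genes and Nrarp, only Nrarp passed the test. Nrarp, a target of Notch that feeds back to destabilise the receptor's intracellular domain, fell by 0.72 (SE 0.111, adjusted p = 3.43e-05) and at 4 h by 1.18 (SE 0.268, adjusted p = 0.011). Of 7 glial genes known to respond to Notch, which include Gfap, Fabp7, Sox9 and Nes, 0 were called on average (median -0.18). The counts on average stand beside 11.9% of all genes, the late minus early count beside 4.93%, and calls at single times beside the shares given for the members.

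**Figure D5:**
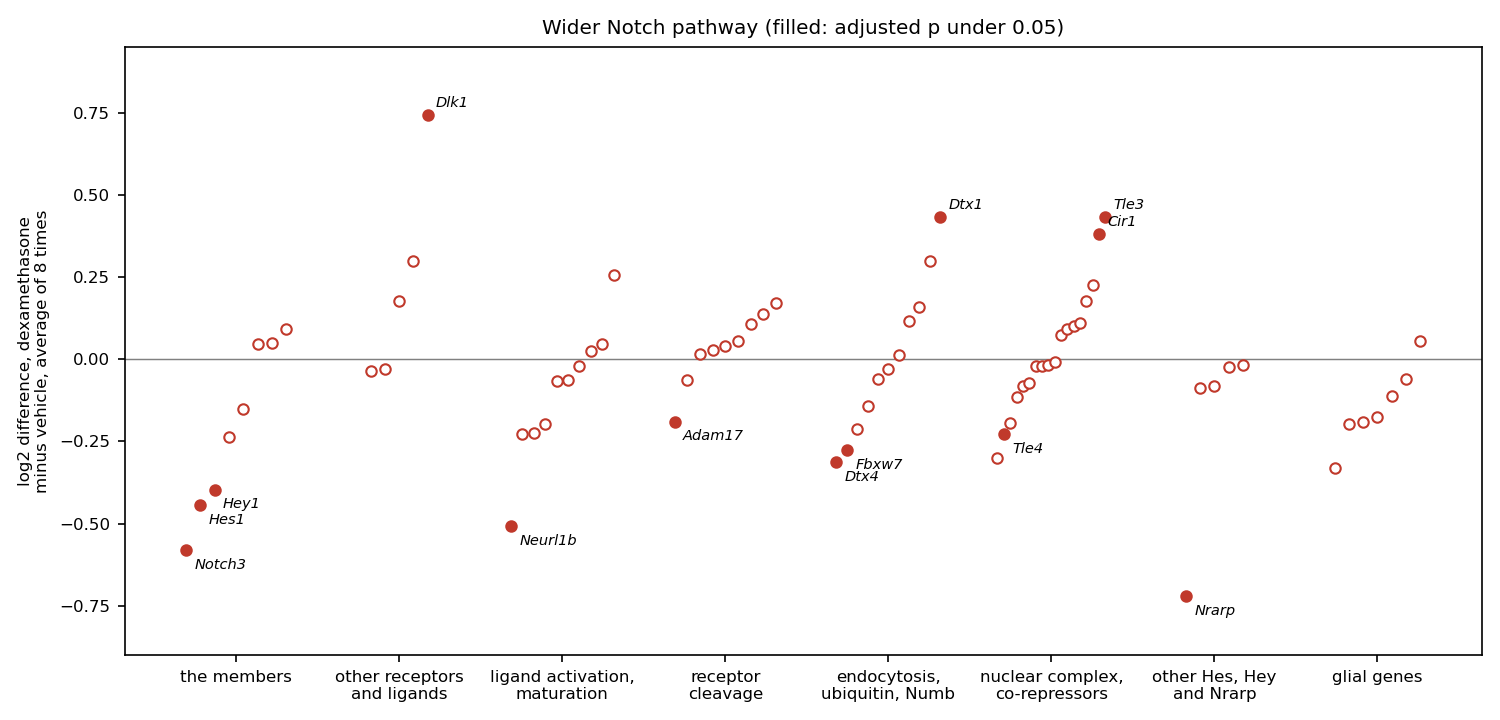
Log2 difference between dexamethasone and vehicle averaged over the 8 times (vertical axis) for every tested gene of the members' list and 7 further lists (horizontal axis), ordered by value within a list. Filled points passed an adjusted p of 0.05 and are named. Nrarp is lowest at -0.72 and Dlk1 highest at 0.74.

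Genes with the most similar pattern were found for each member above background on every array, by Pearson's r over the 16 group means among 12428 genes that met the same condition. For Notch3 they were Haus8 (listed as 2410004L22Rik, r = 0.97), Cit (listed as C030025P15Rik, r = 0.964) and Siva1 (r = 0.964). For Hey1 they were Fam53b (listed as A930008G19Rik, r = 0.91), 4832420L08Rik and Sox9 (both r = 0.894). Jag1 was closest to Dcaf12l2 (listed as Wdr40c, r = 0.934), Vamp5 (0.895) and Sh3rf2 (0.868). Hes1 had lower values, with Syngr3 at 0.781, Traf4 at 0.78 and Pcgf2 at 0.776, and Notch1 was closest to Rell1 (0.829), Ubxn10 (0.809) and Ccny (listed as 3110050L10Rik, 0.798). The 16 means share arrays and normalisation between genes, and these correlations are descriptions.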

How the data were processed

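Expression was measured in 36 astrocyte culture samples, 1 array each. Per the labels' protocols, biotin-labelled cRNA was hybridised to Illumina arrays, and GenomeStudio is named in the submitters' processing notes (version not given in the sources used here). The authors deposited 1 linear intensity per probe and array, from 44.8 to 49460.6. Array medians were 93.7 to 94 and the sorted values of any pair of arrays, beyond the 10 lowest, differed by at most 0.5, which is what quantile normalisation gives. A second deposited table supplied the gene symbols. Its 72 value columns carry names that match no sample label and were not used.

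Background correction used normexp (offset 16), and the corrected values were then log2 transformed. The background level, an intensity of 92.05 (log2 5.84), is the 99th percentile of the spread below the mode (70.44), mirrored. A probe had to exceed it on 2 or more arrays (29337 did), and each symbol took its brightest probe, which left 20523 genes. Symbols were matched to RefSeq: 11989 were current, 3933 were updated by synonym and 4601 had no match. On each array 51.1% to 51.3% of probes were above background. The number of arrays limits the precision.

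All 36 arrays were fitted with 16 group means in limma 3.58.1 (R 4.3.3), with Benjamini-Hochberg adjustment over all genes. Residual degrees of freedom were 20, to which the prior added 5.22. The comparisons were each time, the average of the 8 times, late minus early responses, an F-test across times and contrasts among vehicle groups. Figures used matplotlib 3.10.9 in Python 3.11.15. The fit was tested on simulated data.

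At 2 and 4 h same-numbered replicates deviated together (correlation of deviations from the group means 0.68 to 0.86 and 0.36 to 0.57), so a fit with the replicate number as a block is given there where it changes a call.

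The members and gene lists were chosen with earlier results of these data known. All 9 members are named. Genes of the wider lists are named where called on average, in late minus early or at 2 or more times, and for each member above background on all arrays the 3 genes with the highest r are named.

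Alternatives were no background correction, an offset of 50, no filter on dim probes, array weights, trended and robust variances, the replicate block, every probe on its own, only the arrays compared, and each array left out in turn.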

Additional observations from a re-analysis of the deposited data

Results flagged for a closer look

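The response to dexamethasone differed between late and early times for 2 members. Notch3 responded more strongly downward at 12, 18 and 24 h than at 1, 2 and 4 h, with a difference of -1.05 on the log2 scale, and its response varied across the 8 times (F-test, adjusted p = 0.046). Hes1 differed in the opposite direction, by 0.71, since its deficit was larger at the early times. The F-test of Hes1 across the 8 times did not pass (F = 2.77, adjusted p = 0.438). These differences were tested in limma's fit as contrasts between the responses. The late minus early call of Notch3 held in 37 of 37 alternatives and that of Hes1 in 14 of 37, and the F-test call of Notch3 held in 13 of 44.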

How the results depend on the processing

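Of 104 alternative counts of members called, 82 stayed within 1.5 times the reported count. The fits that left out 1 array are not among these 104 and are given at the end of this paragraph. Without the filter on dim probes, or with every probe on its own, late minus early called 1 member and the F-test 0. Array weights gave 3 members at 6 h (Jag1, Hes1 and Hey1), 0 at 12 h, 2 at 18 h (with Dll1), 2 by the F-test and 3 for the late vehicle contrast. Trended and robust variances gave 2 by the F-test, and no background correction or an offset of 50 gave 1, which was Hey1 in place of Notch3. With only the arrays compared the counts were 0 at 2 h (Hey1 adjusted p = 0.14), 1 at 4 h, 3 at 6 h, 0 at 12 h, 2 at 18 h and 1 for late minus early. The replicate block gave 1 member at 1 h (Hes1, -1.22, adjusted p = 0.0088), 2 at 2 h, 3 at 4 h, 2 at 18 h, 4 for late minus early, 3 by the F-test and 4 on average. The block brought in Jag1 on average (-0.24, adjusted p = 0.012) and Hey1 in late minus early (0.48, adjusted p = 0.014). At the times with 2 arrays per group a number is not taken as a pair: its correlation of deviations ran from -0.13 at 24 h to 0.8 at 0.25 h, with 0.73 at 1 h, and the block changed no other count of members by over 1.5 times. Crossed pairing at 24 h called 1 member. Without the 12 h arrays, a choice made after seeing the data like the crossed pairing, the F-test called 3. Leaving out 1 array at a time gave 1 to 2 members at 4 h, 0 to 3 at 12 h, 0 at 24 h, 3 to 4 on average, 1 to 4 for late minus early, 0 to 3 by the F-test, 0 to 2 for the early and 0 to 1 for the late vehicle contrast.

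Counts over all genes moved more. They ran from 1984 to 4991 on average (reported 2442), 0 to 43 at 1 h (14), 47 to 394 at 2 h (146), 366 to 1335 at 4 h (491), 197 to 2319 at 6 h (429), 23 to 3842 at 12 h (1172), 367 to 3847 at 18 h (747), 446 to 2463 at 24 h (800), 794 to 2820 for late minus early (1011), 444 to 2101 by the F-test (566), 1698 to 3168 for the early vehicle contrast (2600) and 1774 to 8004 for the late one (4168). The cause was not tested. Signal over background limits what can be said of Notch2, Hes5 and Heyl, and with 2 or 3 arrays per group a lone array was assumed to vary like the other groups.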
